A study of Homo sapiens with 18 samples.

Results

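The 48 interferon-stimulated genes described here were taken by symbol from a fixed list, chosen with earlier results of these data known. The tables of 2 prostate cancer cell lines held 21186 genes with a symbol. RNA-seq was performed 24 h after treatment. PC3, an established line of metastatic castration-resistant prostate cancer, received DMSO (control) or 10 µM canagliflozin (CANA), an inhibitor of the glucose transporter SGLT2 that is given for type 2 diabetes. 22RV1, an established castration-resistant line, received DMSO (control), 10 µM canagliflozin (CANA), 5 Gy of radiation (RT) or both (CANA+RT). All cells grew in RPMI medium with serum, and each of the 6 groups had 3 libraries, A to C. Both lines were grown as cultures of tumor cells alone, and nothing in the labels says that the libraries of a group came from separate cultures, so p-values measure only the spread between these libraries, which may be technical.

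Interferons are secreted proteins that warn cells of viral infection. Type I and type III interferons act through JAK1 and TYK2 on a complex in which STAT2 and IRF9 are parts, and this complex binds a DNA element, the interferon-stimulated response element (ISRE), in front of the genes it switches on. Those genes make sensors of foreign RNA and DNA, proteins that block viral entry, translation and assembly, a ubiquitin-like modifier and parts of the immunoproteasome. In tumor cells the same genes can respond to the cell's own nucleic acids, and radiation is a known trigger.

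Of the 48 genes, 43 were in the PC3 table and all 43 passed the minimum mean of 10 normalized reads. That table lists genes with at least 1 read in every library, and IRF7, XAF1, IFI27, PSMB8 and PSMB9 were not in it. In 22RV1, 45 were in the tables and 39 passed the minimum mean of 3 on the regularized log2 scale (rlog), the log2 scale of the deposited values, which shrinks differences of weakly expressed genes. IRF7, OAS1, OAS2, CGAS, STING1 and XAF1 fell below that minimum, and IFI27, PSMB8 and PSMB9 were in neither line's tables. Among the markers checked, VIM, a marker of PC3, was at 35353 to 42149 normalized reads in PC3 and at an rlog of 5.52 to 5.81 in 22RV1, and the immune marker PTPRC was at 4.19 to 11.1 normalized reads in PC3 and at an rlog of 0.86 to 0.93 in 22RV1.

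The ISRE is shown first, because it was found in front of genes that moved in opposite directions after radiation. A RefSeq promoter (GRCh38.p14, 250 bases before the gene's start and 50 from it on) was matched for 38 of the 48 genes. The ISRE core searched was GAAA followed after any 2 bases by GAAA, on both strands, so its reverse complement (TTTC, any 2 bases, TTTC) also counts, and overlapping matches were allowed. It was found in 22 of the 38 promoters (57.9%) and in 996 of 27305 promoters of the whole table (3.65%). The gamma-activated sequence TTCNNNGAA, which can overlap the ISRE core, was found in 9 of the 38 (23.7%) and in 7.88% of all promoters. Whole promoters follow for the genes with the smallest p among those that rose after radiation, IFITM1 (chr11:313790-314089, + strand) and IFITM3 (chr11:320811-321110, - strand), and for the gene that fell most, OAS3 (chr12:112938224-112938523, + strand). Capitals mark the ISRE core, which each of the 3 promoters held 2 times.
IFITM1: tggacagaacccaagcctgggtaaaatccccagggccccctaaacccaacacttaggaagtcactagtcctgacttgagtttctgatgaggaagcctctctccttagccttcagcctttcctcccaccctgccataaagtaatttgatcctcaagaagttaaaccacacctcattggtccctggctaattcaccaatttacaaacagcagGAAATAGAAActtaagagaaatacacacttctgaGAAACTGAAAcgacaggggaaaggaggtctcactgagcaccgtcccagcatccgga
IFITM3: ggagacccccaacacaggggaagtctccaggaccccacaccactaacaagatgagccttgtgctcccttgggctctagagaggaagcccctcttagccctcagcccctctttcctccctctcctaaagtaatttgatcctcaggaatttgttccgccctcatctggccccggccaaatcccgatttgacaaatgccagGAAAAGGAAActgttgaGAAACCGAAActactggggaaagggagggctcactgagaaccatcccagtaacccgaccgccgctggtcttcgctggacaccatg
OAS3: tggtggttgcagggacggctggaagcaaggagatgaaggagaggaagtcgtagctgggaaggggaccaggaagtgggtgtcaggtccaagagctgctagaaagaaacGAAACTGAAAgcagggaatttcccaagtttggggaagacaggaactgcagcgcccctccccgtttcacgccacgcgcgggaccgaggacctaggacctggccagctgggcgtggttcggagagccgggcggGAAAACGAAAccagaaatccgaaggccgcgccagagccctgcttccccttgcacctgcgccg

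Shorter windows of 30 bases show the first ISRE core of genes of both directions, again in capitals and 5′ to 3′ on the gene's strand. TRIM21 (chr11:4393666-4393695, -), BST2 (chr19:17405741-17405770, -), IFI44L (chr1:78620274-78620303, +) and MX1 (chr21:41420559-41420588, +) rose in irradiated 22RV1 cells.
TRIM21: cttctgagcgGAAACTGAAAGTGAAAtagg
BST2: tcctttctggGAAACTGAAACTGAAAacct
IFI44L: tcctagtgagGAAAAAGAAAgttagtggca
MX1: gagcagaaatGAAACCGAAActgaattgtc

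DTX3L (chr3:122564322-122564351, +), PARP14 (chr3:122680800-122680829, +), ISG15 (chr1:1013374-1013403, +) and PSMB10 (chr16:67936852-67936881, -) fell in the same cells.
DTX3L: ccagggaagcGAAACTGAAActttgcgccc
PARP14: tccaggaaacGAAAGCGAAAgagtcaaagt
ISG15: catgcctcggGAAAGGGAAACCGAAActga
PSMB10: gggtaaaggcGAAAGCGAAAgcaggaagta
The core was found in 12 of the 17 matched promoters of genes that rose after radiation, in 5 of the 8 of genes that fell and in 4 of the 8 of genes not called. The window of RSAD2, which fell, and those of CMPK2 and PARP9, which fell too, held no such match. That absence holds only for this spacing and these windows. The RSAD2 window (chr2:6865635-6865934, +) holds GAAACGAAA, a spacing the search did not count. The PARP9 window (chr3:122564735-122565034, -) does not reach the core found for DTX3L. A match describes the letters of the window and is no measurement of binding.

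The first question was at what level the 2 lines carried these genes in the DMSO controls. Levels were compared per kilobase of transcript as percentiles among all genes of each table, because the tables were normalized separately and the PC3 table leaves out genes without reads, so a percentile is not the same quantity in both. Over the 43 genes in both lines the median percentile was 52.9 in PC3 control and 50.5 in 22RV1 control, and Spearman's rho between the lines was 0.57, a description over genes of 1 set. ISG15, the ubiquitin-like modifier, stood at the 97.5th percentile in PC3 and the 97.6th in 22RV1, and ADAR, the RNA-editing enzyme that marks the cell's own double-stranded RNA, at the 92.0th and the 94.9th.

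The lines differed most in IFI6, a small mitochondrial and endoplasmic reticulum protein, which stood at the 93.4th percentile in PC3 and the 34.0th in 22RV1. UBE2L6, the conjugating enzyme for ISG15, stood at the 88.4th and the 35.2nd. CGAS, the sensor of cytosolic DNA, had 392.7 to 482 normalized reads in the 6 PC3 libraries, and its adaptor STING1 had 245 to 297. In 22RV1 the authors' mean over libraries was 0.444 normalized reads for CGAS and 0.365 for STING1, close to none. RSAD2 (viperin), BST2 (tetherin), CMPK2 and the ISG15 protease USP18 ran the other way, at the 12.9th, 18.1st, 23.0th and 30.4th percentile in PC3 and the 44.7th, 55.0th, 49.7th and 59.7th in 22RV1. No test was made across the 2 tables.

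**Figure D1:**
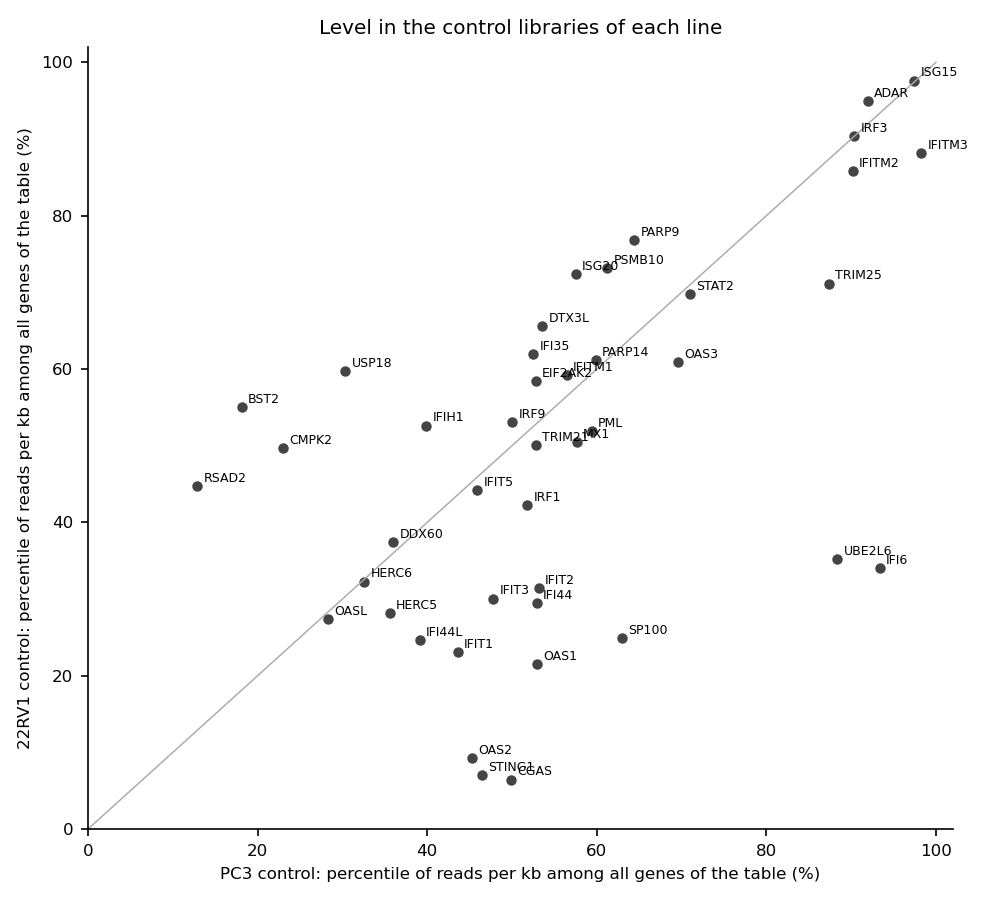
Level of 43 interferon-stimulated genes in the control libraries of PC3 (horizontal axis) and 22RV1 (vertical axis), each as the percentile of mean reads per kilobase of transcript among all genes of that line's table; the grey line marks equal percentiles. CGAS and STING1 sit at the 6.46th and 7.05th percentile in 22RV1 and at the 49.9th and 46.4th in PC3.

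Radiation of 22RV1 moved most of the genes, in both directions. Of the 39 tested, 21 rose (53.8%) and 8 fell (20.5%) in RT against control by limma with Benjamini-Hochberg adjustment over 14563 genes, where 28.4% of all genes tested rose and 29.4% fell. The median change of the 39 was 0.12 on the log2 scale, against -0.00 for all genes. The libraries of RT and control did not overlap for 24 genes that were higher and 8 that were lower, against 30% and 31% of all genes. In bulk RNA a smaller share of cells with a transcript and less transcript per cell cannot be told apart.

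**Figure D2:**
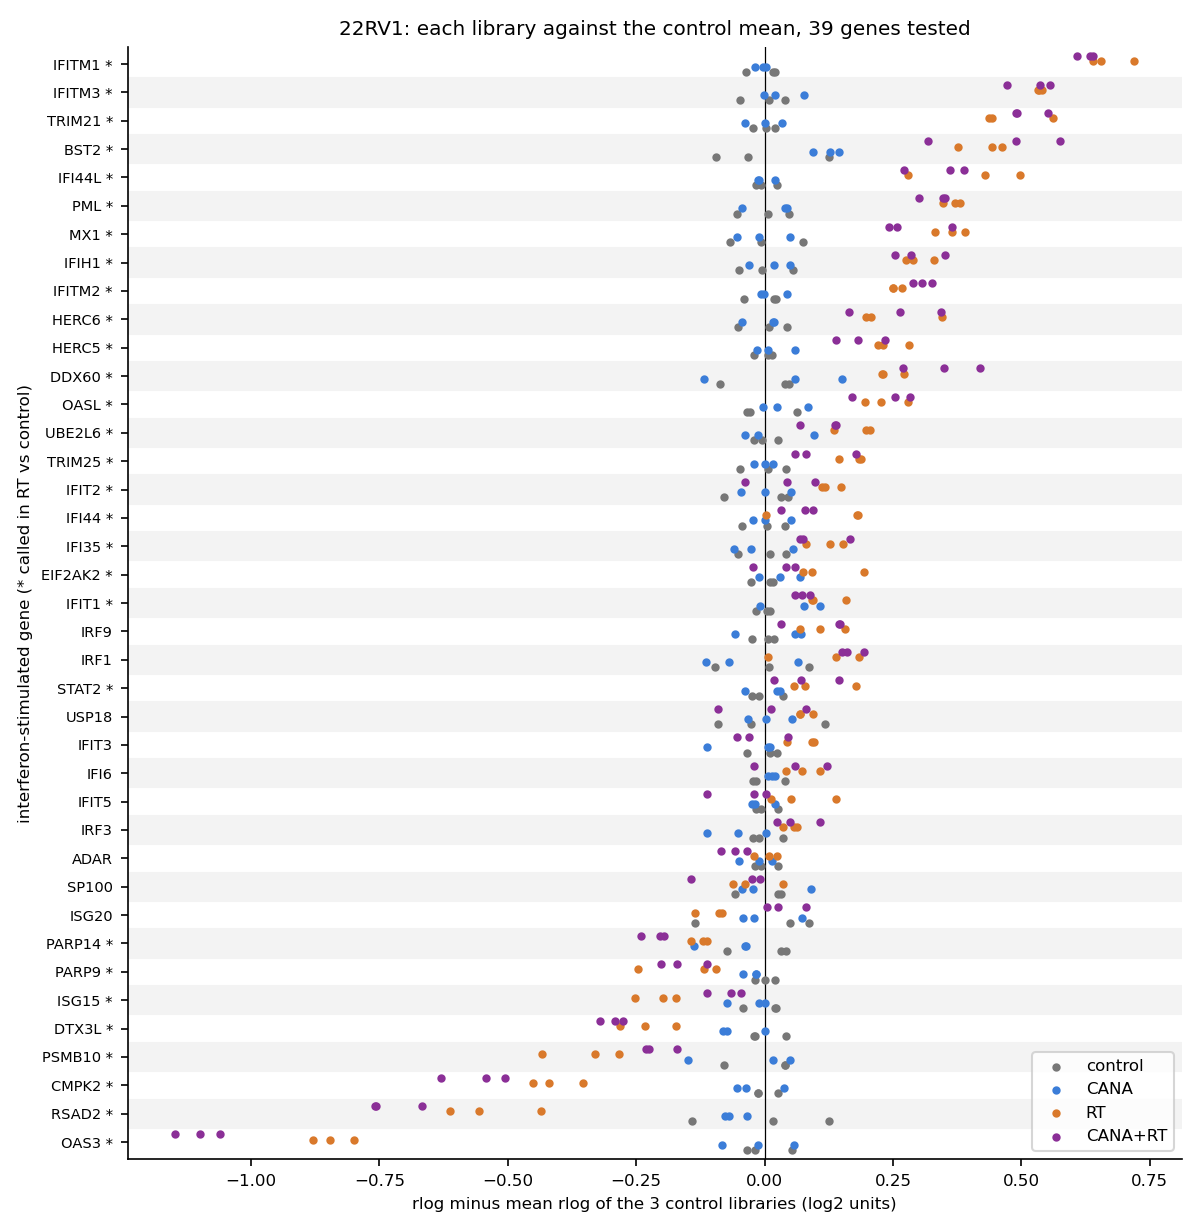
Difference of each 22RV1 library from the mean of the 3 control libraries, in rlog (log2) units, for the 39 genes tested, ordered by the change in RT against control; points are single libraries of control, CANA, RT and CANA+RT, and an asterisk marks a call in RT against control. For none of the 39 genes did all CANA points lie beyond all control points, while the group means with radiation ran from -1.10 (OAS3 in CANA+RT) to 0.67 (IFITM1 in RT).

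Among the regulators, STAT2 was at an rlog of 9.94, 9.99 and 9.93 in control libraries A, B and C and at 10.01, 10.03 and 10.13 in RT. All 3 RT libraries lay above all 3 controls, and STAT2 rose by 0.10 ± 0.04 (SE; limma, adjusted p = 0.019), a call lost without control replicate A, control replicate C or RT replicate C (adjusted p = 0.051, 0.059 and 0.15). IRF9, which gives the complex its DNA binding, was at 7.02, 6.99 and 7.03 in control and at 7.12, 7.17 and 7.08 in RT, a difference of 0.11 ± 0.05 that missed the threshold (limma, adjusted p = 0.060). Its libraries did not overlap either, and it passed without the trend term (adjusted p = 0.030), without RT replicate C (0.049) and with a transcript-length curve taken out (0.0092).

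IRF1, a factor that can switch on many of these genes by itself, was at 6.51, 6.61 and 6.69 in control and 6.61, 6.79 and 6.74 in RT. Here the libraries overlapped (0.11 ± 0.06, limma adjusted p = 0.10), though the difference passed without control replicate C (adjusted p = 0.038) or RT replicate A (0.028). IRF3, which acts ahead of interferon production, differed by 0.05 ± 0.03 (limma, adjusted p = 0.18), with no overlap of the libraries, and passed with quantile normalization and with the length curve taken out.

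The sensors IFIH1 (MDA5, a receptor for long double-stranded RNA) and DDX60, a helicase placed beside such receptors, both rose, by 0.30 ± 0.04 and 0.24 ± 0.06 on the log2 scale (limma, adjusted p = 2.1e-06 and 0.0010). EIF2AK2 (PKR), the kinase that stops translation on double-stranded RNA, rose by 0.12 ± 0.03 (adjusted p = 0.0045), a call lost without RT replicate B and with the length curve taken out. ADAR was level with control, at 0.00 ± 0.03 (adjusted p = 0.91).

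The IFITM proteins, which sit in membranes and block fusion of viruses with the cell, rose together, 3 of 3. IFITM1 was at 6.31, 6.37 and 6.37 in control and at 6.99, 7.00 and 7.07 in RT, the largest rise of the 39 genes in this comparison. Every RT library exceeded every control, and the change was 0.67 ± 0.05 (limma, adjusted p = 2.0e-12).

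IFITM3 was at 8.70, 8.75 and 8.78 in control and at 9.28, 9.28 and 9.28 in RT. Its RT libraries were nearly equal (SD 0.0039) and clear of the controls, with a change of 0.54 ± 0.04 (adjusted p = 5.5e-12). IFITM2 rose by 0.26 ± 0.03 (adjusted p = 4.6e-07). The 3 genes lie within chr11:303655-329475 (hg38, GENCODE 44) and are close copies, so short reads may have been split among them, a limit that also holds for the IFIT and OAS families.

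The IFIT proteins, which bind viral RNA ends, had smaller changes. Of 4 tested, IFIT1 and IFIT2 rose, by 0.12 ± 0.04 and 0.13 ± 0.04 (limma, adjusted p = 0.0073 and 0.019), while IFIT3 (0.08 ± 0.04) and IFIT5 (0.07 ± 0.05) did not pass the test, IFIT3 passing with the length curve taken out. IFIT1, IFIT2 and IFIT3 were weakly expressed, with authors' means of 11.0, 24.6 and 13.9 normalized reads, and the IFIT2 call was lost with quantile normalization, with no filter on low values, and without control replicate A or RT replicate A.

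The OAS family, enzymes that make the second messenger of RNase L, split. OAS3 was at 9.77, 9.84 and 9.75 in control and at 8.91, 8.94 and 8.98 in RT. The groups lay far apart, and the fall was the largest change of the 39 genes in RT against control (-0.84 ± 0.04; limma, adjusted p = 1.7e-15). OASL, a relative without that enzyme activity, rose by 0.23 ± 0.04 from an authors' mean of 14.9 normalized reads (adjusted p = 2.1e-05). OAS1 and OAS2, the neighbours of OAS3 within chr12:112905856-113011723, were at authors' means of 3.12 and 1.10 normalized reads and were not tested.

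Other effectors also went both ways, 6 higher and 2 lower of 11 tested. BST2, which tethers budding virus to the cell, rose by 0.43 ± 0.06 (limma, adjusted p = 1.0e-06), IFI44L by 0.40 ± 0.05 (4.3e-08) and the GTPase MX1 by 0.36 ± 0.05 (6.8e-07). IFI44L was weakly expressed, with an authors' mean of 21.1 normalized reads. RSAD2, a radical enzyme that makes a chain-terminating nucleotide, was at 6.98, 7.09 and 6.82 in control and at 6.41, 6.53 and 6.35 in RT. All RT libraries were below all controls, a fall of 0.53 ± 0.06 (-0.53; adjusted p = 1.7e-08).

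CMPK2, a nucleotide kinase whose gene lies head to head with RSAD2 within chr2:6840570-6898239, was at 7.56, 7.53 and 7.53 in control and at 7.12, 7.18 and 7.09 in RT (-0.41 ± 0.05; limma, adjusted p = 6.4e-08). The groups did not overlap. IFI44 and IFI35 rose by 0.12 ± 0.04 and 0.12 ± 0.05 (limma, adjusted p = 0.013 and 0.034), IFI44 with RT replicate B among the controls and an authors' mean of 9.52 normalized reads. Both calls were lost without control replicate C, RT replicate A or RT replicate C, and IFI35 also without control replicate A and with quantile normalization. The nuclease ISG20 (-0.10 ± 0.05) and IFI6 (0.07 ± 0.04) did not pass the test, but both passed without control replicate C, ISG20 with quantile normalization and IFI6 with the length curve taken out.

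PML, the organizer of the nuclear bodies that carry its name, was at 8.61, 8.71 and 8.67 in control and at 9.03, 9.01 and 9.04 in RT. The groups were well apart, and PML rose by 0.37 ± 0.04 (limma, adjusted p = 1.5e-08). SP100, another protein of these bodies, differed by -0.02 ± 0.04 (adjusted p = 0.71).

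The 3 ADP-ribosylation genes of this set fell together. DTX3L, a ubiquitin ligase, and PARP9, its partner, share a divergent promoter region, and PARP14 lies near them within chr3:122527924-122730840. Their changes were -0.23 ± 0.04, -0.15 ± 0.04 and -0.13 ± 0.04 (limma, adjusted p = 3.7e-06, 0.00088 and 0.0043), and in each the RT libraries lay below the controls. Outside the set PARP genes went both ways. PARP12 rose (0.30 ± 0.04; limma, adjusted p = 2.6e-06) and PARP10 fell (-0.14 ± 0.05, adjusted p = 0.019). PSMB10, the only immunoproteasome subunit measured, fell by 0.35 ± 0.05 (-0.35; adjusted p = 3.9e-06).

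The ISG15 pathway was split between modifier and enzymes. ISG15 was at 10.87, 10.86 and 10.80 in control and at 10.65, 10.59 and 10.67 in RT. The RT libraries were all lower, a change of -0.21 ± 0.03 (limma, adjusted p = 3.3e-06). The conjugating enzyme UBE2L6 rose by 0.18 ± 0.04 (adjusted p = 0.00042), the ligase HERC5 by 0.24 ± 0.04 (5.3e-06) and its relative HERC6 by 0.25 ± 0.05 (0.00013), while USP18 passed only without control replicate B (0.08 ± 0.05, adjusted p = 0.21 with all libraries). UBE2L6 and HERC5 were weakly expressed, with authors' means of 15.5 and 17.6 normalized reads, and HERC6 had 33.3.

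TRIM21, a ligase and antibody receptor of the cytosol, was at 6.87, 6.92 and 6.90 in control and at 7.34, 7.33 and 7.46 in RT. It rose by 0.48 ± 0.05 with no overlap (limma, adjusted p = 3.2e-09). TRIM25, the ligase of the RNA sensing pathway, rose by 0.17 ± 0.03 (adjusted p = 8.8e-05).

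**Figure D3:**
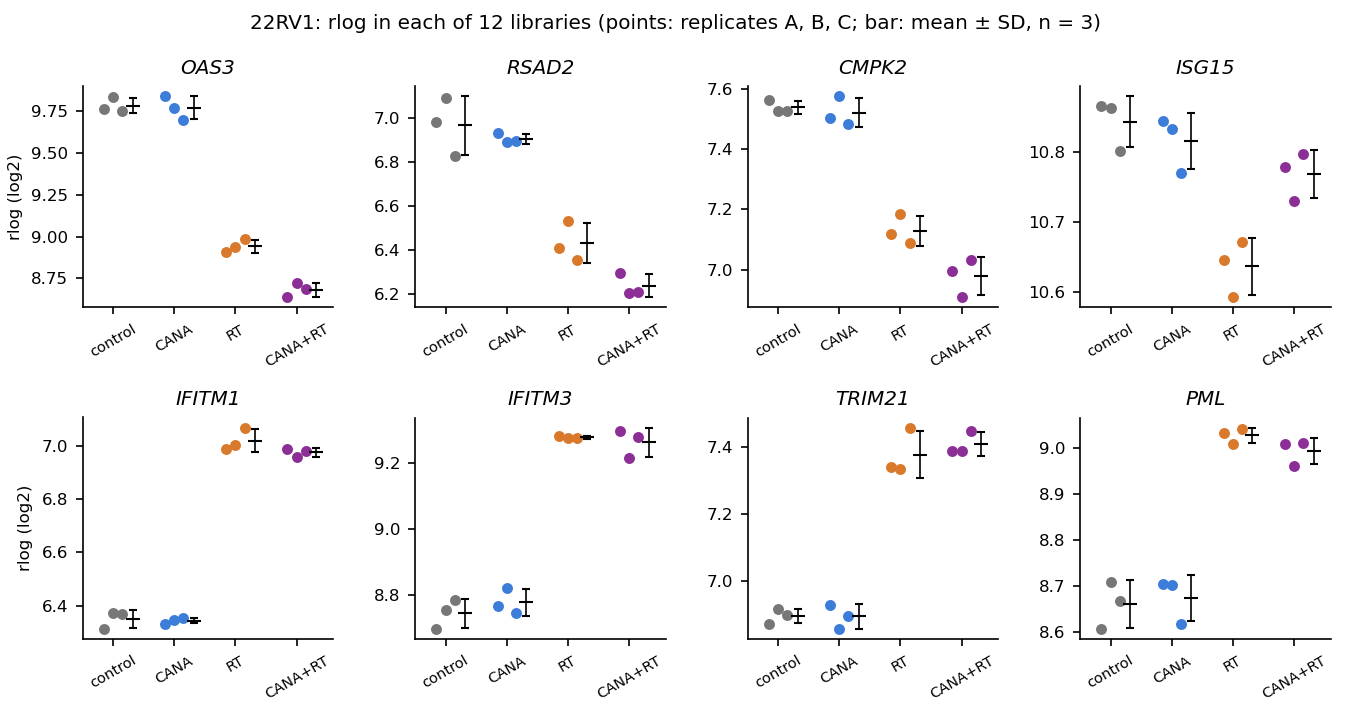
rlog (log2) of 8 interferon-stimulated genes in each of the 12 libraries of 22RV1; points are replicates A, B and C and the bar is mean ± SD (n = 3). OAS3, RSAD2 and CMPK2 were lower in RT and lower again in CANA+RT, ISG15 was lower in RT (10.64) than in CANA+RT (10.77), and IFITM1, IFITM3, TRIM21 and PML were higher with RT with or without CANA.

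Genes that lie within 200 kb of each other formed 8 groups holding 21 of the 48, and no group with tested genes held calls in both directions after radiation. IFI44L with IFI44, IFIT1 with IFIT2, the 3 IFITM genes and HERC5 with HERC6 rose, and CMPK2 with RSAD2 and PARP9 with DTX3L and PARP14 fell. The groups are also families or share promoter regions, so their members are not independent.

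Genes around the 48 were taken from 5 further lists, and their counts after radiation stand against the same 28.4% and 29.4% of all genes called higher and lower. Of 10 interferon genes IFNE was the only gene in either line's tables, and it was too weak to test in 22RV1. Of 9 receptors and kinases 3 rose and 1 fell, with the interferon-gamma receptor chain IFNGR2 at 0.33 ± 0.05 (limma, adjusted p = 7.8e-06) and the type I receptor chain IFNAR1 at -0.11 ± 0.03 (0.0045). Of 11 tested genes of nucleic acid sensing 1 rose, DHX58 (LGP2, 0.27 ± 0.05, adjusted p = 2.3e-05). The 2 that fell were the kinase TBK1 (-0.14 ± 0.04, adjusted p = 0.0013) and the DNA exonuclease TREX1 (-0.18 ± 0.04, adjusted p = 0.00014). The RNA sensor DDX58 (RIG-I) was among those not called (-0.03 ± 0.05, adjusted p = 0.63). Of 9 brakes on signalling 2 rose and none fell, and of 24 other interferon-induced genes 7 rose and 8 fell, with a median change of 0.00.

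The next question was whether canagliflozin changed these genes without radiation. In 22RV1 none of the 39 was called in CANA against control by limma, where 0% of all genes tested rose and 0% fell. Of the 39, 0 reached an unadjusted p under 0.05. The study itself reported genes changed in both directions between these groups, by DESeq2. No other tool was run on the rlog values, and limma without the trend term also called 0. For none of the 39 did the 3 CANA and 3 control libraries separate, against 2.79% of all genes that were higher and 3.56% that were lower.

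The median absolute difference of the 39 was 0.01 on the log2 scale. BST2 had the smallest p, at 6.48, 6.64 and 6.42 in control and 6.66, 6.61 and 6.64 in CANA. Control replicate B fell among the CANA libraries (0.12 ± 0.06, limma adjusted p = 0.997). PARP14 followed, with 9.96, 10.07 and 10.06 in control and 9.99, 9.89 and 9.99 in CANA (-0.07 ± 0.04).

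For IRF3 the control libraries were at 10.41, 10.45 and 10.39 and the CANA libraries at 10.42, 10.37 and 10.30 (-0.05 ± 0.03). DTX3L was at 9.99, 10.05 and 9.98 against 10.00, 9.93 and 9.92 (-0.05 ± 0.04). RSAD2 and ISG15 differed by -0.06 ± 0.06 and -0.03 ± 0.03, and IRF1, IRF9 and STAT2 by -0.04 ± 0.06, 0.02 ± 0.05 and 0.00 ± 0.04. In each of these genes the groups overlapped.

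In irradiated 22RV1 cells, canagliflozin moved 2 of the 39 genes. OAS3 was at 8.91, 8.94 and 8.98 in RT and at 8.64, 8.72 and 8.69 in CANA+RT, a further fall beyond that of radiation (-0.26 ± 0.04; limma, adjusted p = 0.00069). All CANA+RT libraries lay below all RT libraries. ISG15 was at 10.65, 10.59 and 10.67 in RT and at 10.78, 10.73 and 10.80 in CANA+RT, so that it rose (0.13 ± 0.03, adjusted p = 0.021) and lay between RT and control.

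Thus 1 gene rose and 1 fell, 2.56% each of the 39, against 1.4% and 1.17% of all genes tested. The OAS3 call held in each alternative tried, with adjusted p between 3.5e-05 and 0.015. The ISG15 call was lost with no filter on low values (adjusted p = 0.072), without the trend term (0.075) and without RT replicate A, RT replicate B, CANA+RT replicate A or CANA+RT replicate C (adjusted p = 0.069, 0.16, 0.10 and 0.13), and the adjusted p over all alternatives ran from 0.0013 to 0.16.

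In this comparison the change went with transcript length, with Spearman's rho of -0.44 over the 39 genes and -0.39 over 14099 genes with a known length. ISG15 has a transcript of 637 bases and OAS3 of 6599. With a curve on transcript length taken from each library, an alternative added after the data were seen, OAS3 was still called (-0.24, adjusted p = 0.0021) and ISG15 was not (0.10, adjusted p = 0.079).

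The neighbouring genes RSAD2 and CMPK2 had lower values in CANA+RT than in RT without passing the test. RSAD2 was at 6.41, 6.53 and 6.35 in RT and at 6.30, 6.21 and 6.21 in CANA+RT (-0.19 ± 0.06; limma, adjusted p = 0.071). CMPK2 was at 7.12, 7.18 and 7.09 against 7.00, 6.91 and 7.03 (-0.15 ± 0.05, adjusted p = 0.090). For both genes the CANA+RT libraries were all lower, and RSAD2 was called when the compared groups were fitted alone (adjusted p = 0.023) and with a replicate block (0.0495).

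ISG20 was at 8.54, 8.59 and 8.60 in RT and at 8.69, 8.71 and 8.76 in CANA+RT, with no overlap (0.14 ± 0.05; limma, adjusted p = 0.12, and 0.028 with the compared groups alone). EIF2AK2 was at 10.25, 10.37 and 10.27 against 10.15, 10.23 and 10.22, also without overlap (-0.09 ± 0.03, adjusted p = 0.15). All 4 IFIT genes had lower values in CANA+RT, by -0.04 to -0.11, and none passed the test. In all, 4 of the 39 genes were higher without overlap and 9 were lower, against 12.2% and 12.6% of all genes, and the median change was -0.04.

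The regulators did not pass the test between CANA+RT and RT. IRF1 was at 6.80, 6.75 and 6.76 in CANA+RT (0.06 ± 0.06 from RT), IRF9 at 7.16, 7.05 and 7.16 (-0.00 ± 0.05) and STAT2 at 9.97, 10.03 and 10.10 (-0.03 ± 0.04). Each overlapped its RT libraries. No gene of the receptor, sensing, brake or other induced lists was called in this comparison.

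Against the DMSO control, 16 of the 39 genes were higher and 8 lower in CANA+RT, with 28.4% and 29.2% of all genes called in those directions. The libraries separated for 19 higher and 9 lower genes, against 30.8% and 31.1% of all genes. This comparison shares its controls with RT against control, so the values are set side by side. OAS3 was at -0.84 in RT and -1.10 ± 0.04 in CANA+RT (limma, adjusted p = 4.9e-18), RSAD2 at -0.53 and -0.73 ± 0.06, CMPK2 at -0.41 and -0.56 ± 0.05, and ISG15 at -0.21 and -0.07 ± 0.03, its call (adjusted p = 0.045) being lost in 8 alternatives. IFITM1 was at 0.67 in RT and 0.63 ± 0.05 in CANA+RT, IFITM3 at 0.54 and 0.52 ± 0.04, and TRIM21 at 0.48 and 0.51 ± 0.05.

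In the CANA+RT libraries IFITM1 was at 6.99, 6.96 and 6.98. IFITM3 was at 9.30, 9.22 and 9.28, and TRIM21 at 7.39, 7.39 and 7.45. All of these lay above all control libraries.

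The 8 genes that fell were called in both comparisons, as were 15 of those that rose. STAT2, IFIT1, IFIT2, IFI35, IFI44 and EIF2AK2 were called in RT alone and IRF1 in CANA+RT alone, and a call in 1 of the 2 does not show a difference between them. IRF1 was 0.17 ± 0.06 above control in CANA+RT (limma, adjusted p = 0.014), a call lost without control replicate A (adjusted p = 0.10) and with quantile normalization (0.062).

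Whether canagliflozin acted otherwise in irradiated than in unirradiated cells was tested by the interaction of both treatments. Of the 39 genes 0 were called in either direction by limma, against 0.0549% and 0.0481% of all genes, with 4 at an unadjusted p under 0.05, where 1523 of all 14563 genes were, and 0 called without the trend term. OAS3 had the smallest p (-0.25 ± 0.06, adjusted p = 0.091; 0.043 without control replicate B), followed by ISG15 (0.16 ± 0.04, adjusted p = 0.19). A p above the threshold does not show that the 2 responses to canagliflozin were equal.

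Without radiation, the CANA libraries of the genes with the smallest p in this test overlapped the controls. OAS3 was at 9.84, 9.77 and 9.70 in CANA, and ISG15 at 10.85, 10.83 and 10.77. CMPK2 was at 7.50, 7.58 and 7.48 in CANA.

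EIF2AK2 was at 10.15, 10.19 and 10.19 in control and 10.24, 10.16 and 10.20 in CANA, and its interaction was -0.12 ± 0.05 (limma, adjusted p = 0.39). ISG20 was at 8.73, 8.77 and 8.55 in control and 8.66, 8.75 and 8.64 in CANA. PSMB10 was at 8.09, 8.09 and 7.97 in control, 8.07, 8.10 and 7.90 in CANA, 7.77, 7.72 and 7.62 in RT and 7.88, 7.82 and 7.83 in CANA+RT, with an interaction of 0.17 ± 0.08 (adjusted p = 0.45). For PSMB10 the CANA+RT libraries all lay above those of RT and below the controls.

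In PC3 most of the genes had higher values in CANA than in control, but the libraries disagreed on how far. Of the 43 genes 31 had a positive and 12 a negative difference on the log2(value + 1) scale, with a median of 0.20 against -0.01 for all genes. Without CANA replicate B, 30 were positive and 13 negative, with a median of 0.095 against -0.0088 for all genes. With all 6 libraries none was called by limma, where 0% of all genes rose and 0% fell. The study's own DESeq2 comparison of these groups did report genes changed in both directions. At an unadjusted p under 0.05 there were 10 of the 43, against 2485 of all 13449 genes, and edgeR on the reads recovered from the values called 0 and DESeq2 called 2.

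The CANA libraries lay above all controls for 13 of the 43 genes and below for 3, against 17.7% of all genes in each direction. CANA replicate B stood apart from A and C. It held the highest of the 6 values for 29 of the 43 genes and the lowest for 8, and its departure from control was larger in short than in long transcripts, with Spearman's rho between length and difference of -0.76 over the 43 genes against -0.34 in A and -0.26 in C (-0.63, -0.17 and -0.17 over 13074 genes). In B the median difference was 0.76 for the 16 genes with transcripts under 2000 bases and -0.32 for the 14 of 4000 bases or more. With the same kind of length curve taken out, as without it, 0 of the 43 were called.

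**Figure D4:**
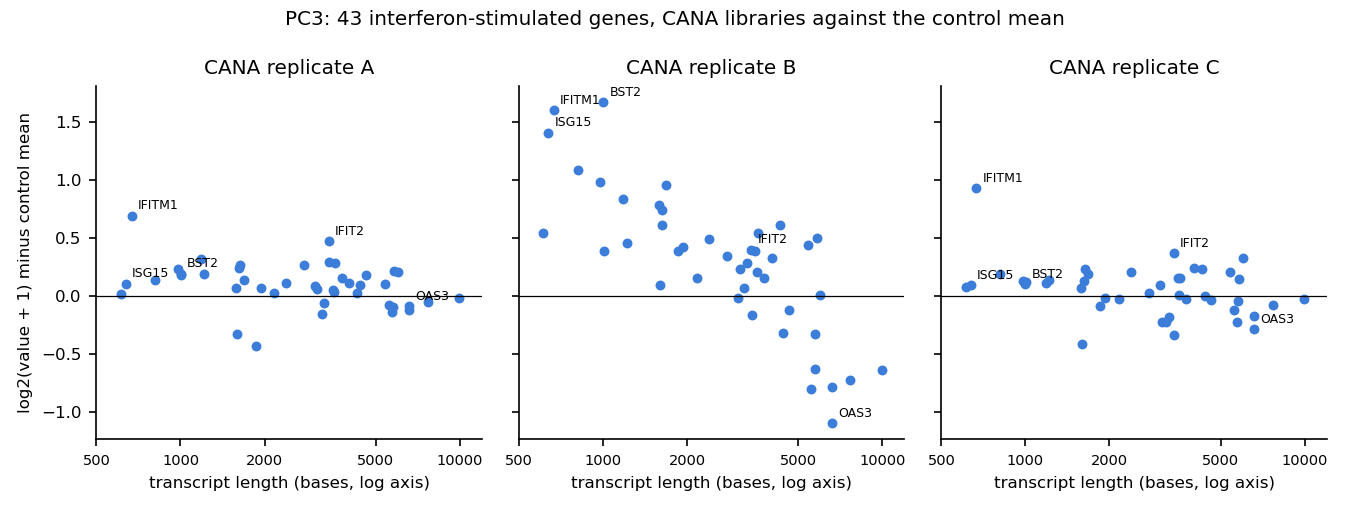
Difference of each PC3 CANA library from the control mean on the log2(value + 1) scale (vertical axis) against transcript length (horizontal log axis) for 43 interferon-stimulated genes; each point is a gene. Short transcripts such as ISG15 and BST2 were high and long ones such as OAS3 low in replicate B, with rho of -0.76, and the points of A and C lay closer to 0.

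IFITM1 had the largest difference of the 43 genes. It was at 140.2, 124 and 129 normalized reads in control and at 212, 398 and 250.3 in CANA A, B and C. All CANA libraries were higher, B the most (1.08 ± 0.22 on the log2(value + 1) scale; limma, adjusted p = 0.24, and 0.0018 by DESeq2). Without replicate B it was 0.81 ± 0.11 and called (adjusted p = 9.5e-05), and with the length curve taken out it was 0.65 (adjusted p = 0.058).

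IFIT2 was at 545, 586 and 591 in control and at 798, 758 and 743 in CANA. Here B lay between A and C, and all 3 exceeded the controls (0.42 ± 0.08; limma, adjusted p = 0.24, and 0.0072 by DESeq2). Without replicate B the difference was the same size, 0.42 ± 0.07, and called (adjusted p = 0.00041).

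OAS1, too weak to test in 22RV1, was at 302, 262 and 252 in control and at 327, 414 and 319 in CANA (0.37 ± 0.13; limma, adjusted p = 0.25). UBE2L6 was at 1211, 1252 and 1180.5 in control and at 1389, 1672 and 1338 in CANA (0.27 ± 0.10, adjusted p = 0.26). IFI44L was at 527, 473.5 and 474 in control and at 570.2, 694 and 545 in CANA (0.29 ± 0.12, adjusted p = 0.26). In all 3 genes the CANA libraries were above the controls, with replicate B the highest.

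TRIM25, with a transcript of 5745 bases, was at 5429, 5305 and 5065 in control and at 4780.5, 3413.5 and 4503 in CANA. All CANA libraries were lower, B the lowest (-0.33 ± 0.13; limma, adjusted p = 0.26). ISG15 was at 2273, 2318 and 2252 in control and at 2460.0, 6062 and 2440.5 in CANA, all above the controls and B by far the most. Its difference of 0.54 ± 0.33 (adjusted p = 0.36) was 0.10 ± 0.05 without B.

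Among the regulators the groups overlapped. STAT2 was at 1644, 1597 and 1617 in control and at 1729, 1301 and 1622 in CANA (-0.07 ± 0.12). IRF1 was at 547, 593 and 541 against 575, 648 and 563 (0.09 ± 0.09), and IRF9 at 258, 244 and 202 against 277, 391 and 256 (0.37 ± 0.18, limma adjusted p = 0.29). For these regulators B was again the library furthest from control, low for STAT2 and high for IRF1 and IRF9.

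CGAS was at 461, 435 and 481 in control and at 411, 482 and 392.7 in CANA (-0.10 ± 0.11; limma, adjusted p = 0.58). STING1 was at 265, 291 and 245 in control and at 272, 297 and 261 in CANA (0.05 ± 0.11, adjusted p = 0.77). For both genes the groups overlapped.

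**Figure D5:**
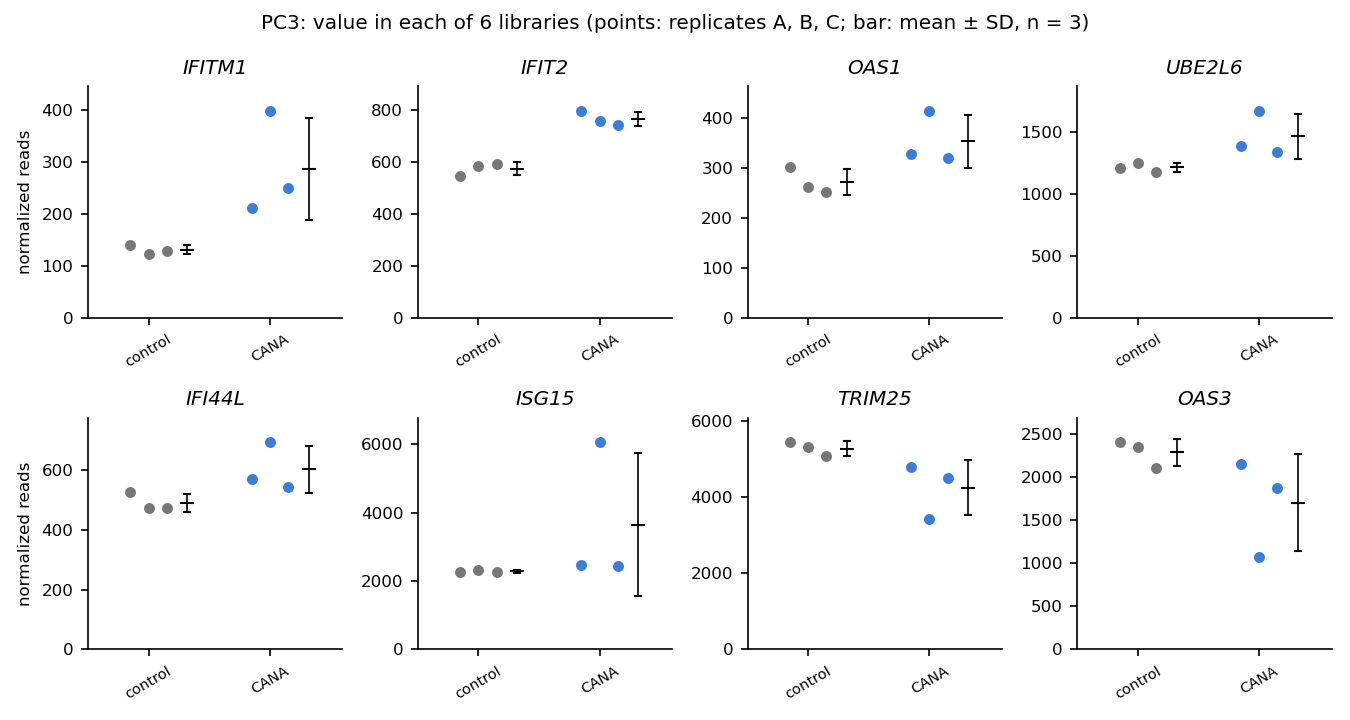
Normalized reads of 8 interferon-stimulated genes in each of the 6 PC3 libraries; points are replicates A, B and C, the bar is mean ± SD (n = 3), and the axes start at 0. IFIT2 has its CANA libraries close together (743 to 798), while ISG15 has 6062 in CANA replicate B against 2460.0 and 2440.5 in A and C.

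Without replicate B, 4 of the 43 genes rose (9.30%) and 3 fell (6.98%) by limma, against 10.4% and 9.52% of all genes tested. Besides IFITM1 and IFIT2, DDX60 rose by 0.27 ± 0.08 (adjusted p = 0.018) and UBE2L6 by 0.17 ± 0.06 (0.045). IRF3 fell (-0.37 ± 0.06, adjusted p = 0.00030), from 1936, 1974 and 1787 in control to 1518 and 1423 in A and C, with 2030 in the library left out. TRIM25 (-0.18 ± 0.05, adjusted p = 0.015) and ADAR (-0.14 ± 0.05, adjusted p = 0.046) fell as well.

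By role, all 4 IFIT and all 3 IFITM genes had positive differences in PC3 with all libraries in the fit, from 0.21 to 1.08, without passing the test. Without replicate B these differences ran from 0.048 (IFITM3) to 0.81 (IFITM1), and only those of IFIT2 and IFITM1 were called. RSAD2 and CMPK2, which fell in irradiated 22RV1 cells, were weak in PC3, at 17.8 to 33.1 and 61.2 to 84.0 normalized reads, with differences of -0.07 ± 0.30 and 0.02 ± 0.15 (CMPK2 -0.08 ± 0.16 without replicate B). Among the 5 further lists no gene was called in PC3 by limma with all 6 libraries. Without replicate B, calls were made in 3 of them: 1 higher and 1 lower of 11 genes of nucleic acid sensing, 3 higher and 2 lower of 9 brakes, and 2 higher and 3 lower of 28 other induced genes. IFNE, the only interferon gene listed, differed by -0.43 ± 0.27 (limma, adjusted p = 0.37).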

How the data were processed

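RNA-seq was measured in 18 libraries, 3 in each of 6 groups. Per the labels and the study's methods, 50-base single-end strand-specific reads were trimmed with cutadapt, aligned to hg38 with HISAT2, counted per gene and normalized with DESeq2. For PC3 the authors deposited a signal, reads divided by a size factor: whole reads were recovered for 99.9989% of 90558 values within 0.01, and 15.8 to 28.3 M reads per library. For 22RV1 the authors deposited log2 (rlog) values, whose depth per library is unknown. The 22RV1 tables share columns, identical within 5e-09, and were joined into 12 libraries and 20967 genes. The authors also deposited their own comparisons, with fold changes, p-values and a Wald score with its rank and error; these, and 54 columns without a sample name, were not used. Genes without a symbol held 0.0605% of the mean reads in 22RV1 and 0.0247% in PC3.

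limma 3.58.1 in R 4.3.3, with a trend, was run on log2(value + 1) of 13449 PC3 genes averaging 10 normalized reads or more and on the rlog of 14563 genes averaging 3 or more, all 12 libraries sharing 1 spread, and was tested on simulated data. A call needed an adjusted p (Benjamini-Hochberg, over all genes) below 0.05. An exact permutation test of 3 against 3 libraries cannot go below 0.10. Alternatives were another pseudocount (10), no filter, edgeR 4.0.16 and DESeq2 1.42.0 on recovered reads, a replicate block, a transcript-length curve, no trend, quantile normalization, the compared groups alone, and each library left out. Values are given for every library for the 6 genes with the smallest p in each comparison at a mean of at least 100 normalized reads or an rlog of 6, and for STAT2, IRF1, IRF9, ISG15, CGAS and STING1 where tested; others were named as their role required. The genes and lists were chosen with earlier results of these data known. Some genes are left out of the text. Transcript lengths and positions are from GENCODE 44.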

Additional observations from a re-analysis of the deposited data

How the results depend on the processing

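In CANA+RT against RT the number of genes higher was 0 without the filter on low values, with limma without a trend and with the transcript-length curve taken out (added after the data were seen), and 2 with the compared groups alone, against 1; the number lower was 2 with the compared groups alone and 2 with a replicate block (RSAD2 added in both), against 1. With a library left out these counts ran from 0 to 1 and from 1 to 1. In PC3 DESeq2 on the recovered reads called 2 genes higher against 0, edgeR 0, and with a library left out the counts ran from 0 to 4 higher and from 0 to 3 lower, all non-zero counts coming without CANA replicate B. Over the whole PC3 table edgeR called 0 genes higher and 0 lower and DESeq2 258 and 73, against 0 and 0, and over that of 22RV1 the fit with the compared groups alone called 668 and 520 in CANA+RT against RT, against 204 and 170. In RT against control the counts ran from 18 to 22 and from 8 to 9 with a library left out, in CANA+RT against control from 13 to 17 and from 7 to 8, and in the interaction from 0 to 0 and from 0 to 1. The remaining settings kept these counts within 1.5 times.

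Among the genes chosen for each comparison by the rule on named genes, signs changed in 17 values, each of a gene not called in that comparison. With the length curve taken out, STAT2 in PC3 was 0.0012 and STING1 -0.013; with quantile normalization, IRF9 in CANA+RT against RT was 0.0066. The others came from leaving out a library. In PC3 STAT2 then ran from -0.16 to 0.049 and STING1 from -0.0058 to 0.12. In 22RV1 CANA against control RSAD2 ran from -0.13 to 0.0020, IRF1 from -0.091 to 0.0045 and STAT2 from -0.0076 to 0.027. In CANA+RT against RT IRF9 ran from -0.024 to 0.034 and STAT2 from -0.060 to 0.010. In the interaction IRF9 ran from -0.068 to 0.010 and STAT2 from -0.065 to 0.0053. The cause was not tested.

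Letters were not taken as pairs, and the labels do not say whether equal letters were paired. Correlations of same-letter deviations were -0.14 to 0.43 in 22RV1 and 0.05 to 0.12 in PC3. Between RT and CANA+RT they were 0.09 to 0.17, against -0.13 to 0.04 for unlike letters. In that comparison the replicate block called 250 of all genes higher and 229 lower, against 204 and 170. Apart from adding RSAD2 there, the block moved no count of the genes described here by over 1.5 times. With 3 libraries a group and the spread of PC3 only differences well beyond that spread could be called, and the rlog understates differences of genes with few reads.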
